A study of Danio rerio with 4 samples.

Results

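The cyp2aa genes are a group of cytochrome P450 genes that lie side by side on zebrafish chromosome 23. All 14 array probes whose symbol begins with cyp2aa were taken, either as annotated for the array or as RefSeq now names their accession. They report on 8 genes, out of 20406 probes and 9665 named genes in all. RefSeq's gene table for assembly GRCz12tu lists 10 cyp2aa genes, and 2 of them, cyp2aa7 and cyp2aa11, had no probe among those analysed here. The family was selected on the NHA9 over lGl ratios of an earlier look at the same arrays, because its copies lay on both sides of 0. Those ratios are therefore given as a description, with no test.

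The NHA9 embryos came from Tg(spi1::lox-eGFP-lox::NHA9) fish crossed to Tg(hsp70::Cre) fish, in which heat-induced Cre removes the eGFP cassette and lets the spi1 promoter drive NUP98-HOXA9, an oncogene made by gene fusion in human myeloid leukaemia. For the lGl embryos the floxed fish were mated with wild-type AB fish, and the cassette was kept. Both groups therefore carried the NHA9 transgene, both were heat-shocked at 37 °C for 1 hour at 24 hours post-fertilization, and both were then kept at 28 °C. RNA was taken at 28 hours, 4 hours after the heat shock. The spi1 promoter belongs to a myeloid transcription factor gene, whereas whole embryos were measured, so fewer cells of a type and less RNA per cell cannot be told apart. One parent of the NHA9 embryos carried Cre and no parent of the lGl embryos did, so the effects of Cre, of the second parent's background and of the fusion gene cannot be told apart. The number of embryos or clutches per extract is not given in the sources used here.

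Cytochrome P450 enzymes are haem proteins that insert an oxygen atom into lipids, steroids, drugs and pollutants. Many of them, though not all, receive electrons from P450 oxidoreductase and cytochrome b5. Family 2 is the part of the superfamily best known for drug and fatty acid oxidation, chiefly in liver and gut. The cyp2aa subfamily is known from fish, and human and mouse have no gene of that name. Its genes stand in tandem, as copies of one another, and the individual role of most copies is not established, so none is given for them here.

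There were 2 pairs of RNA extracts, each hybridised on a forward array (NHA9 in the channel labelled Cy5) and on a dye-swap array, 4 arrays in all. The labels call the channels Cy5 and Cy3, while their labelling protocol gives the dyes as Alexa Fluor dyes. Each value is the authors' deposited log ratio of an array's channels, taken as log2, so that 1 unit is a 2-fold difference. The ratio is read as NHA9 over lGl on all 4 arrays. That direction is likely for the forward arrays, whose titles put NHA9 first and whose Cy5 channel held NHA9 RNA, but it is not stated with the values. The titles of the dye-swap arrays put lGl first, so for those it rests on their running with the forward arrays. Every sign turns if the ratio is the reverse. A forward array and its own dye swap ran in the same direction, with correlations over probes of 0.747 in replicate 1 and 0.465 in replicate 2, which is why the columns are read as a single contrast (probes are not independent replicates). Across replicates, the correlation was 0.449 between the forward arrays and 0.387 between the dye swaps. Between a forward array and the dye swap of the other replicate it was only 0.112 and 0.109. Arrays that shared neither extracts nor dye orientation thus ran together only weakly. The arrays of replicate 2 spread more widely (median absolute deviations of 0.683 and 0.602) than those of replicate 1 (0.378 and 0.359). A log ratio holds no level, so neither the abundance of a gene nor the labelled tissue could be checked. The fusion transcript, eGFP and Cre were not analysed here. Where a gene had several probes their mean was used, and the 2 arrays of a pair were averaged to 1 replicate value.

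Of the 8 genes, cyp2aa6, cyp2aa1 and cyp2aa4 stood farthest above 0, cyp2aa3 stood farthest below it, and cyp2aa2, cyp2aa8, cyp2aa9 and cyp2aa12 lay nearer to 0. The distance between the highest and the lowest copy was 3.17 log2 units, while the median SD between the replicates was 0.22 for the 8 genes. Over all items measured that median SD was 0.28. The distance is a description only, since the family was chosen because its copies lay on both sides of 0.

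The array annotation names the single probe of cyp2aa6 si:ch73-73d17.3, and RefSeq names its accession cyp2aa6. The highest ratio was that of cyp2aa6, measured by this 1 probe. On forward arrays it was 2.03 in replicate 1 and 2.84 in replicate 2, and on dye swaps 1.80 and 2.05, with replicate 1 first here and in the values that follow. All 4 arrays were far above 0, with the forward array of replicate 2 the highest. The mean was 2.18 ± 0.37 (SD, n = 2), which is 4.53-fold higher in NHA9 embryos if the base is 2. Of the 13261 items tested, 28 had a mean ratio as high or higher, cyp2aa6 included.

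cyp2aa1, also measured by 1 probe, followed. Its ratio was 2.22 and 2.40 on the forward arrays and 1.49 and 1.20 on the dye swaps. Both forward arrays were higher than both dye swaps, and all 4 were above 0. The replicate values were nearly equal, 1.85 in replicate 1 and 1.80 in replicate 2, with a mean of 1.83 ± 0.04 (SD, n = 2), or 3.55-fold. Only 6.95% of all items had replicates that lay closer together.

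cyp2aa4 had 2 probes, which differed in size but not in sign. The first was at 0.61 and 0.77 on the forward arrays and 0.85 and 1.05 on the dye swaps. The second was at 1.62 and 1.96 on the forward arrays and 1.45 and 1.20 on the dye swaps. Every array of the second probe was higher than every array of the first, by means of 1.56 and 0.82. The gene mean was 1.19 ± 0.08 (SD, n = 2), or 2.28-fold.

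cyp2aa3 was the lowest copy. The array annotation names its 2 probes cyp2aa3v1, a synonym of cyp2aa3 in RefSeq. The first probe was at −1.14 and −1.20 on the forward arrays and −1.22 and −0.83 on the dye swaps. The second was at −1.18 and −1.21 on the forward arrays and −0.88 and −0.29 on the dye swaps. All 8 values were below 0, and for both probes the dye swap of replicate 2 was the one nearest to 0. The gene mean was −0.99 ± 0.15 (SD, n = 2), 1.99-fold lower in NHA9 embryos.

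**Figure D1:**
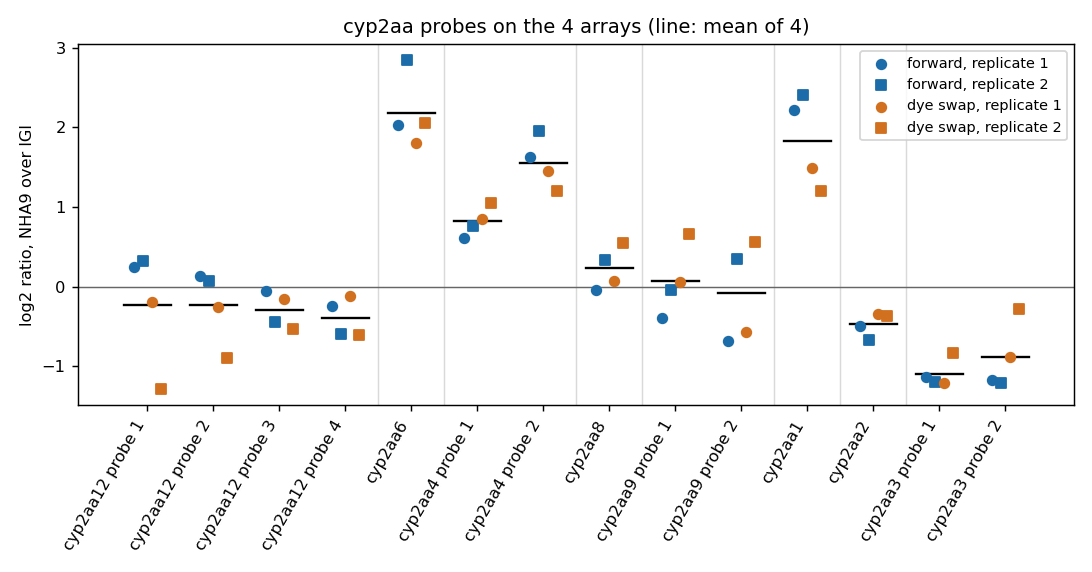
Log2 ratios, NHA9 over lGl, of the 14 cyp2aa probes on the 4 arrays (vertical axis), with genes in chromosome order along the horizontal axis. Circles are replicate 1 and squares replicate 2, blue is forward and orange dye swap, and the black line is the mean of the 4 arrays; all arrays of cyp2aa6, cyp2aa4 and cyp2aa1 lie above 0 and all arrays of cyp2aa2 and cyp2aa3 below it.

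Of the copies nearer to 0, cyp2aa2 was the steadiest. Its single probe was at −0.50 and −0.67 on the forward arrays and −0.34 and −0.37 on the dye swaps, with a mean of −0.47 ± 0.07 (SD, n = 2). All 4 arrays were below 0 by a small amount. The single probe of cyp2aa8 was at −0.04 and 0.33 on the forward arrays and 0.08 and 0.55 on the dye swaps. Its mean was 0.23 ± 0.30, nearly all of it from replicate 2.

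cyp2aa9 averaged −0.01 ± 0.55 (SD, n = 2), because its replicates lay on opposite sides of 0, at −0.40 in replicate 1 and 0.38 in replicate 2. Its second probe, at −0.68 and −0.57 on the arrays of replicate 1 and 0.35 and 0.57 on those of replicate 2, showed that difference most plainly. The first probe ran from −0.40 to 0.66. Its replicates lay farther apart than those of 83.2% of all items, so no direction can be given for this copy.

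The 4 probes of cyp2aa12 had close means, from −0.39 to −0.23, and a gene mean of −0.29 ± 0.29 (SD, n = 2). Their single arrays agreed less well. The first probe was at 0.25 and 0.32 on the forward arrays but −0.19 and −1.28 on the dye swaps. The second was likewise above 0 on both forward arrays (0.14 and 0.08) and below it on both dye swaps (−0.26 and −0.90). The remaining probes were below 0 on all 4 arrays, between −0.61 and −0.06.

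One sign on all 4 arrays was seen for 5 of the 8 genes, against 32.6% of all items. As a description only, the threshold used for all items (limma, Benjamini-Hochberg adjusted p under 0.05) was reached by 3 of the 8 above 0, where 2.04% of all items reached it, and by 1 below 0, where 0.792% did. In either direction this is 4 of 8, beside 2.84% of all items. Nothing is read from these shares, since the family was picked from the same ratios. Over 6 other settings that keep the single contrast, the mean of cyp2aa6 lay between 1.93 and 2.44 and that of cyp2aa1 between 1.34 and 2.31. That of cyp2aa4 lay between 1.14 and 1.24, and that of cyp2aa3 between −1.18 and −0.80. Again as a description, cyp2aa6 and cyp2aa4 reached the threshold in all 6, cyp2aa1 in 5 and cyp2aa3 in only 2. These 6 leave out the setting with each probe as an item. There the second probe of cyp2aa4 reached the threshold and its first did not. For cyp2aa3 the first probe reached it and the second did not.

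Along the chromosome the 3 high copies were not side by side as a single block. In RefSeq's order the 10 genes run cyp2aa12, cyp2aa6, cyp2aa7, cyp2aa11, cyp2aa4, cyp2aa8, cyp2aa9, cyp2aa1, cyp2aa2 and cyp2aa3. The high cyp2aa6 thus follows cyp2aa12 directly, and the high cyp2aa1 stands between cyp2aa9 and cyp2aa2. The only copies between the high cyp2aa6 and cyp2aa4 are cyp2aa7 and cyp2aa11, which were not measured. The last positions, cyp2aa2 and cyp2aa3, held the copies with the lowest means.

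Differences between copies on the same array do not depend on how an array was centred. cyp2aa1 exceeded the adjoining cyp2aa2 by 2.72 and 3.07 on the forward arrays and by 1.83 and 1.57 on the dye swaps, a mean of 2.30 ± 0.03 (SD, n = 2). cyp2aa12 lay below the adjoining cyp2aa6 on every array, by a mean difference (cyp2aa12 minus cyp2aa6) of −2.47 ± 0.67. cyp2aa9 lay below the adjoining cyp2aa1, by −1.83 ± 0.59. These 3 boundaries carry the largest steps in the cluster, and the order of the copies at each was the same on all 4 arrays. Between cyp2aa8 and cyp2aa9 the difference was only 0.23 ± 0.25, and its sign turned on the dye swap of replicate 2.

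Steps of this size were uncommon between neighbouring genes in general. Of 9631 pairs of measured genes with no other measured gene between them, 554 (5.75%) differed by 1 log2 unit or more, and the median difference was 0.31. Of the 6 such pairs inside the family, 3 did, with a median of 1.41. The size of 1 unit was chosen after the values were seen, and as the family was chosen for its spread the comparison is a description. The oligonucleotide sequences of the probes were not used here, so how far a probe for one copy also binds transcripts of the other copies was not tested.

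Of 11 measured genes within or beside the cluster that are not cyp2aa genes, 10 lay between −0.06 and 0.53. zgc:101048, which lies between cyp2aa4 and cyp2aa8, was at 0.51 and 1.096 on the forward arrays but 0.06 and 0.07 on the dye swaps, with a mean of 0.43 ± 0.21 (SD, n = 2; limma adjusted p = 0.724). The forward arrays were both higher than the dye swaps. Before the cluster, the nearest measured genes were gpx7, of the glutathione peroxidase family, at −0.06 ± 0.14, and the sterol carrier gene scp2b at 0.53 ± 0.38, then the kinase gene stk35 at 0.06 and the phosphatase gene mdp1 at 0.02. None of these 4 passed in limma, with adjusted p from 0.563 to 0.997.

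On the far side, the myosin light chain gene myl9a stood at 0.20, the transglutaminase gene tgm2a at 0.23 and rprd1b, a regulator of RNA polymerase II, at 0.21. tti1 was at −0.04 and the splicing-associated gene ctnnbl1 at 0.39, and none of the 5 passed (limma adjusted p from 0.775 to 0.99). One of the 11 neighbours was lower, beside 0.792% of all items. It was rnf146, a ubiquitin ligase gene and the farthest of the 5 before the cluster, at −1.50 ± 1.04 (SD, n = 2; limma adjusted p = 7.09e-05). It was at −0.77 and −2.06 on the forward arrays and −0.75 and −2.41 on the dye swaps, so replicate 2 held most of the difference. It did not pass when the replicate was a block without a dye term (limma adjusted p = 0.119).

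**Figure D2:**
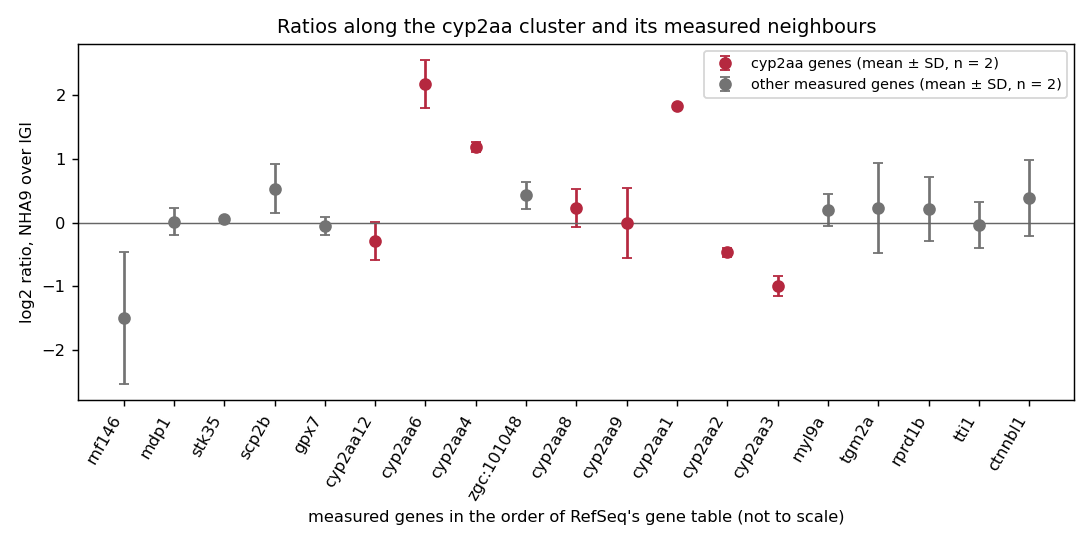
Mean log2 ratio, NHA9 over lGl, with SD over 2 replicates (vertical axis), for measured genes in RefSeq's order along chromosome 23 (horizontal axis, not to scale). The cyp2aa genes (red) range from −0.99 to 2.18 with copies nearer to 0 between the high cyp2aa4 and cyp2aa1, while the other genes (grey), apart from rnf146 at −1.50, lie between −0.06 and 0.53.

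The part of a ratio that turns with dye orientation was not used in choosing the family, and was tested. It is the forward value minus the dye-swap value, divided by 2, averaged over the replicates. It was past the threshold for 1 of the 8 genes (limma), beside 15.0% of all items. A count of 1 in 8 is close to that share, so nothing about the family is read from it. The count was 4 with each probe as an item of its own (a gene counting where any probe passed) and 3 with columns scaled to a common spread or after quantile normalization. In those settings the share of all items was not counted, so nothing is read from the 4 and the 3. The 1 gene past the threshold in the first count was cyp2aa1, at 0.37 in replicate 1 and 0.60 in replicate 2, a mean of 0.48 ± 0.16 (SD, n = 2; limma adjusted p = 0.00136). For the other 7 it lay between −0.19 and 0.26, with adjusted p from 0.0699 to 0.713 in limma, and the median of its size over the 8 genes was 0.19 (0.13 over all items).

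If the columns had instead been deposited by dye, this orientation part would be the NHA9 over lGl ratio. cyp2aa6 would then stand at 0.26 ± 0.20, cyp2aa4 at 0.05 ± 0.09 and cyp2aa3 at −0.19 ± 0.19, and only cyp2aa1 would pass. The part shared by both orientations was the larger one for cyp2aa6, cyp2aa1, cyp2aa4, cyp2aa3, cyp2aa2, cyp2aa8 and cyp2aa12. For cyp2aa9 the orientation part, at −0.18, was the larger.

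**Figure D3:**
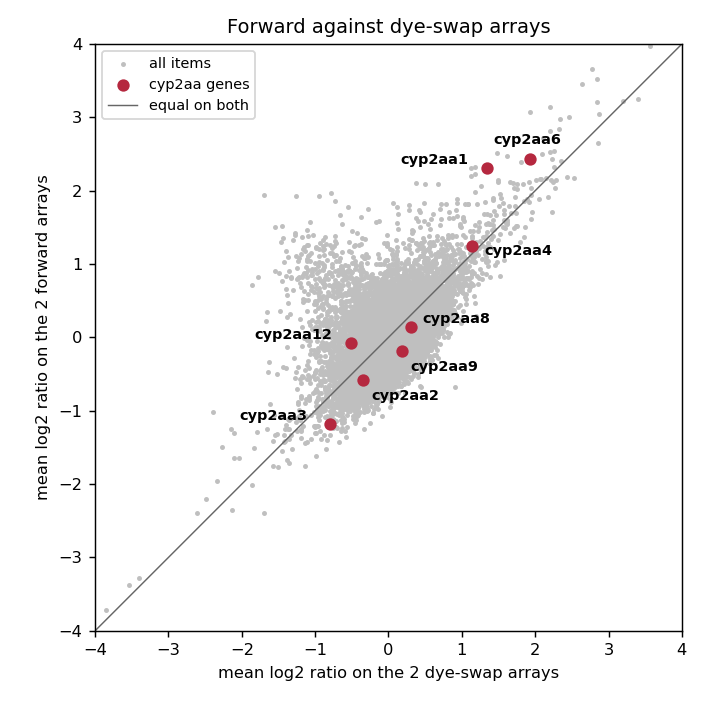
Mean log2 ratio on the 2 forward arrays (vertical axis) against that on the 2 dye-swap arrays (horizontal axis) for all 13261 items (grey) and the 8 cyp2aa genes (red), with the line of equal values; 5 items lie outside the drawn range. cyp2aa6 and cyp2aa1 are at the upper right, at 2.44 and 2.31 on forward arrays and 1.93 and 1.35 on dye swaps, and cyp2aa3 is at the lower left.

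Other P450 genes were taken by symbol. Those under other symbols, such as ptgis and tbxas1 in the fatty acid oxygenase list below, were left out. Taking symbols of cyp followed by a digit gave 29 other measured P450 genes. Of these, 3 were higher in NHA9 embryos, 0 were lower and 26 did not pass in limma. Their median ratio was 0.22, beside 0.02 over all items, but it was 0.01 in replicate 1 and 0.37 in replicate 2. The share that passed as higher was 10.3%, beside 2.04% of all items.

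The 9 other family 2 genes are the nearest relatives measured, and 0 of them passed in limma, beside 2.84% of all items. In so short a list a count of 0 is close to that share, so no lack of change is read from it. An unadjusted p under 0.05 was seen for 1384 of all 13261 items and for 1 of these 9 genes. The 3 highest were cyp2p9 at 0.87 ± 0.23 (SD, n = 2; limma adjusted p = 0.0983), cyp2ad3 at 0.51 and cyp2y3 at 0.42. cyp2p9 was at 1.27 and 0.93 on the forward arrays and 0.81 and 0.49 on the dye swaps, above 0 throughout. The 3 lowest were cyp2k17 at −0.33, cyp2x8 at −0.16 and cyp2v1 at 0.07. Their means thus spread from −0.33 to 0.87, inside the span of the cyp2aa copies, and 7 of 9 were positive.

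Among the 6 genes of families 1, 3 and 4, 1 was higher, beside 2.04% of all items. It was cyp1a, the enzyme induced through the aryl hydrocarbon receptor, at 1.01 ± 0.94 (SD, n = 2; limma adjusted p = 0.0331). Its ratio was 1.63 and 1.72 on the arrays of replicate 1, but 0.11 and 0.57 on those of replicate 2, so replicate 1 carried it. It passed in 2 of 6 other settings of the single contrast. It did not pass with columns scaled to a common spread (adjusted p = 0.153), under a replicate block (0.255 without and 0.109 with a dye term) or on forward arrays alone (0.108). cyp1c1 was at 0.58 and cyp1d1 at 0.39, while the 3 lowest, cyp4t8, cyp3c3 and cyp3c1, were at 0.18, 0.16 and 0.11, none past the threshold.

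In the remaining 14 genes, most of which make or break down steroids, sterols, bile acids, retinoids and vitamin D, 2 were higher, beside 2.04% of all items. cyp11a1.1, for the side-chain cleavage enzyme of steroid synthesis, was at 2.96 ± 0.13 (limma adjusted p = 7.29e-20, n = 2), above every cyp2aa copy, and cyp17a1, for the next steroid hydroxylase, at 1.59 ± 0.06 (adjusted p = 1.45e-05). cyp7a1, the rate-limiting enzyme of bile acid synthesis, averaged 0.80 ± 0.52, short of the threshold (adjusted p = 0.169). The lowest were cyp27c1 at −0.28, cyp46a1.1 at −0.21 and the sterol demethylase gene cyp51 at −0.18. None of the 29 genes had a mean as low as that of cyp2aa2 or cyp2aa3, a difference that was not tested.

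**Figure D4:**
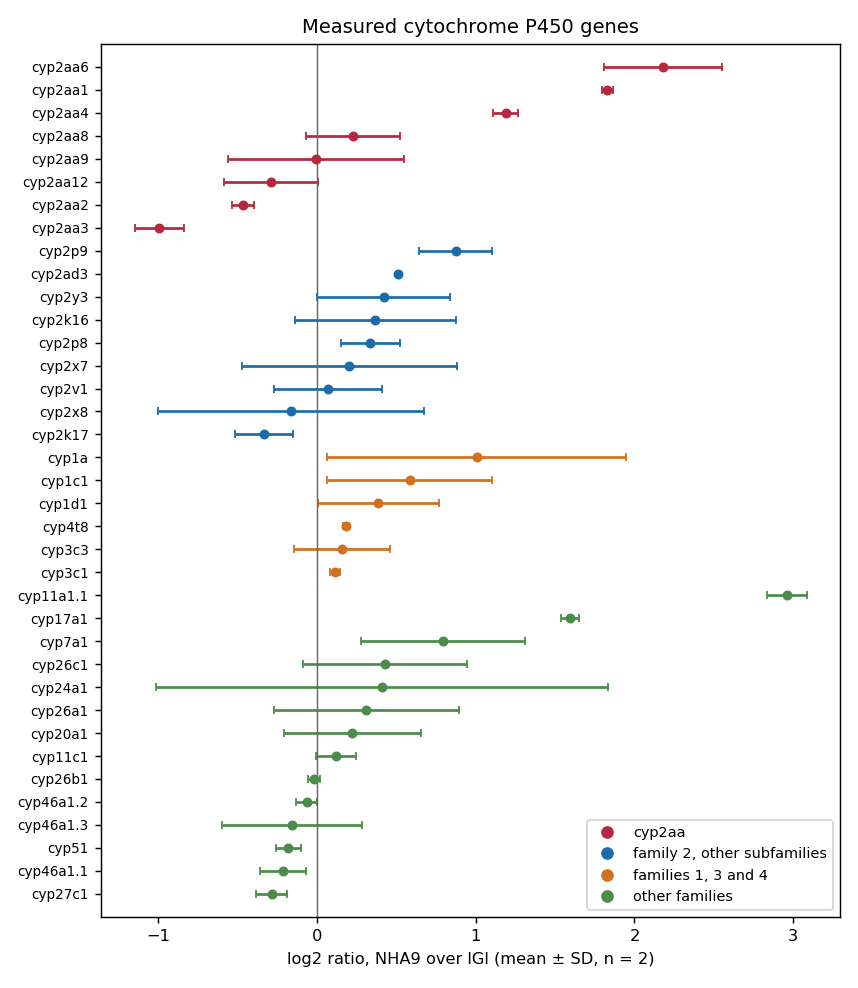
Mean log2 ratio, NHA9 over lGl, with SD over 2 replicates (horizontal axis), for the 37 measured genes with a cyp symbol (vertical axis). They are grouped as cyp2aa (red), other family 2 (blue), families 1, 3 and 4 (orange) and other families (green). The cyp2aa genes span −0.99 to 2.18, the other family 2 genes −0.33 to 0.87, and cyp11a1.1 is highest at 2.96.

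Of the genes that supply P450 enzymes with electrons or control their transcription, 15 of 28 listed were measured. In limma 1 was lower and 0 were higher, beside 0.792% and 2.04% of all items. Beside 1384 of all 13261 items, 5 of the 15 had an unadjusted p under 0.05. Their median was 0.10, and their means ran from −1.11 to 0.63. The lower one was ahrra, a repressor of the aryl hydrocarbon receptor, at −1.11 ± 0.60 (SD, n = 2; limma adjusted p = 0.0111). It was at −1.49 and −0.92 on the forward arrays and −1.59 and −0.45 on the dye swaps, below 0 on all 4 and lower in replicate 1. It did not pass with columns scaled to a common spread (adjusted p = 0.0929) or under a replicate block (0.138 without and 0.0504 with a dye term). The receptor gene ahr2 was at 0.09, the cytochrome b5 gene cyb5a at −0.67 (adjusted p = 0.343) and the liver and gut regulator hnf4a at 0.63 (adjusted p = 0.428), the highest of the list. The forward arrays of hnf4a were at 0.74 and 1.65, its dye swaps at 0.17 and −0.06.

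Conjugation enzymes, which attach glutathione, glucuronic acid or sulphate to oxidised compounds, numbered 27, with a median of 0.03. Of these, 0 passed in limma, beside 2.84% of all items. An unadjusted p under 0.05 was seen for 3 of them, and for 1384 of all 13261 items. The glucuronosyltransferase gene ugt1a1 was highest at 0.84 ± 0.19 (limma adjusted p = 0.123, n = 2), and the glutathione transferase gene gstr lowest at −0.60. Beside 2.84% of all items, 0 of 10 fatty acid oxygenase and epoxide hydrolase genes passed in limma, with 1 at an unadjusted p under 0.05. Their median was 0.20 (0.10 in replicate 1 and 0.44 in replicate 2). The lowest, the lipoxygenase gene alox12, averaged −0.35, with opposite signs in the replicates (−0.87 in replicate 1, 0.17 in replicate 2). The highest was the epoxide hydrolase gene ephx1 at 0.60.

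Markers of other tissues were set beside these genes. Over all 13261 items 2.84% passed, and 1384 had an unadjusted p under 0.05. Of 12 liver genes 0 passed in limma, with 1 at an unadjusted p under 0.05. Their median was −0.04, from −0.30 for apoa1a to 0.62 for the fibrinogen gene fga. Of 6 gut genes 0 passed in limma, with 0 at an unadjusted p under 0.05. Their median was −0.01, from −0.57 for fabp1b.1 to 0.42 for foxa2. Some of these means average values of opposite sign in the 2 dye orientations. fabp1b.1 was at 0.27 and 1.17 on the forward arrays but −1.96 and −1.76 on the dye swaps, and apoa2, a liver gene, at 0.71 and 0.87 against −0.86 and −1.02. The 5 brain genes had a median of −0.28, but 0.002 in replicate 1 and −0.61 in replicate 2. The lowest of them, elavl4, averaged −0.86, with −1.69 from replicate 2 and −0.04 from replicate 1, and the highest, neurod1, was at −0.10. The 4 kidney genes had a median of 0.37 (pax2a at −0.28, cdh17 at 0.48). Of the brain and kidney genes 0 passed in limma, with 1 at an unadjusted p under 0.05, elavl4. In lists this short, counts of 0 are close to the 2.84% of all items, so no lack of change is read from them. Of 6 myeloid genes 3 were higher (lyz at 1.16, mpeg1.1 at 1.08 and mpx at 1.04) and all 6 had positive ratios, the lowest 0.46 for spi1b, with 2.04% of all items higher. None of the 3 passed with columns scaled to a common spread (limma adjusted p from 0.0688 to 0.0881) or under a replicate block without a dye term (0.0761 to 0.404). lyz averaged 1.83 on forward arrays but 0.48 on dye swaps, where it did not pass (limma adjusted p = 0.559). Over 6 other settings that keep the single contrast, lyz and mpx each passed in 2 and mpeg1.1 in 4. The part that any of these tissues had in the cyp2aa ratios was not tested.

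Over the 4 arrays, the named genes with the pattern nearest to that of cyp2aa6 were nansb, for sialic acid synthesis, at a Euclidean distance of 0.56 and a mean of 2.02, ggact.2 at a distance of 0.56 and a mean of 2.40, and tma16 at 0.73 and 1.82. Nearest to cyp2aa3 were tmem62 at a distance of 0.20 and a mean of −0.94, the cardiolipin synthase gene crls1 at 0.29 and −1.08, and the transglutaminase-like gene tgm1l4 at 0.31 and −0.85. Each distance rests on 4 values, so it says only that the ratios were alike. No other cyp2aa copy was among the nearest genes of either, but only the 3 nearest of 9665 named genes were taken. That absence therefore says nothing about whether the copies ran together.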

How the data were processed

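The values are the authors' deposited log ratios of 2-colour arrays, taken as log2 because they range from −7.98 to 6.75. Per the labels' protocols, cDNA carried Alexa Fluor dyes and samples with little RNA were amplified. The log base, centring, scanner, background correction, normalization and any probe filter: not given in the sources used here. Column medians were −0.01, −0.01, 0.03 and 0.03. Probes were named through the platform annotation and RefSeq's gene table (12 cyp2aa probes by accession, 2 by synonym); of 20406, 16810 had 1 symbol and 3596 none. Probes of a gene were averaged, giving 13261 items. As the labels show, same-numbered arrays measured the same pair of extracts with dyes exchanged, and were averaged to 1 replicate (n = 2). The mean was tested against 0 with limma 3.58.1 in R 4.3.3 over all items, Benjamini-Hochberg threshold 0.05. All items shared a pooled SD of 0.43, which gives a standard error of 0.30, so the number of extracts limits precision. The p-values of the ratios set a mean against this pooled spread between extracts, called biological replicates in the labels. In the fit of the ratios a gene's own spread does not set its p-value, so genes whose replicates lay far apart, such as cyp1a and rnf146, could pass. The fit of the orientation part had a smaller standard error, with a median of 0.088. There a gene's own spread did enter its p-value. The fit was tested on simulated data. Members and lists were chosen with earlier results of these data known. Named were all members and neighbours, the P450 genes that passed and the 3 highest and lowest of each P450 group, those that passed and the extremes of the other lists, and the 3 nearest patterns. In addition ahr2 and cyb5a were named after their values were seen. No probe, promoter or protein sequence was used.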

Additional observations from a re-analysis of the deposited data

How the results depend on the processing

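With each replicate as a random block and no dye term, 114 of all items passed instead of 376, 2 cyp2aa genes instead of 4, 0 neighbours instead of 1, and 0 regulator, conjugation, liver and gut genes instead of 1; the last was also 0 with a dye term (a correlation chosen after seeing the data, since duplicateCorrelation gave no estimate there) and with columns scaled to a common spread. That scaling left 170 items in all, and forward arrays alone gave 617. The cyp2aa counts of 2 and 4 are a description only, since the family was chosen on these ratios. The regulator to gut count was 2 with each probe as an item (a gene counting where any probe passed), with forward arrays alone and with dye swaps alone. Read by dye, 1984 items passed, which is 15.0% of all. So did 1 of 8 cyp2aa genes, 1 of 29 other P450 genes, 2 of 11 neighbours and 9 regulator to gut genes. The lists behind the last count held 15, 27, 10, 12 and 6 measured genes, and nothing about them is read from it. The means that turned sign included those of cyp17a1 (−0.019), cyp1a (−0.14), mpx (−0.064), rnf146 (0.083), apoa1a (0.56) and fabp1b.1 (1.29). They also included cyp2aa12 (0.22) and cyp2aa8 (−0.084), which were short of the threshold in both readings. The orientation part passed for 4 cyp2aa genes with each probe as an item and for 3 after scaling or quantile normalization, instead of 1. No share of all items was counted for it in those settings, so nothing is read from these counts. cyp2p9 (1.1) passed on forward arrays alone, and the 3 myeloid calls became 0 under the scaling and under the block with no dye term. For the sets counted above, the counts under the alternatives not named here stayed within 1.5 times. With 1 replicate left out no test is possible, and the replicate values above take its place. Signal over background is unknown.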
